A study of Arabidopsis thaliana with 30 samples.

Results

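Fatty acid desaturase transcripts were followed in seedlings of Arabidopsis thaliana (ecotype Col-0) across 10 groups of RNA-seq libraries. The genes were listed by name as 9 desaturase loci, by a rule that uses no measured value, out of 33602 genes in each deposited table. They are FAD2 (AT3G12120), FAD3 (AT2G29980), FAD5 (AT3G15850), FAD6 (AT4G30950), FAD7 (AT3G11170), FAD8 (AT5G05580), SSI2 (AT2G43710), ADS1 (AT1G06080) and ADS2 (AT2G31360). All 9 passed the filter on low counts in both experiments, and the smallest count of any of them in any library was 10. The bdr1,2,3 mutant carries T-DNA insertions in BDR1, BDR2 and BDR3 (alleles bdr1-1, bdr2-1 and bdr3-1), and its reference was the wild type of the same ecotype. In the photomorphogenesis experiment, 5-day-old seedlings of each genotype, grown in darkness at 21 °C, stayed dark or received white light for 2 h or 4 h. In the heat shock experiment, 12-day-old seedlings raised in long days at 12 °C were moved to 27 °C for 4 h (heat) or left at 12 °C (cold). Each group had 3 libraries from separate plates, 30 in all. Nothing given here says that the plates were sown on different days, so p-values measure the spread between plates. RNA came from whole seedlings, in which fewer cells of a type and less RNA per cell cannot be told apart.

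Desaturases insert unsaturated bonds into fatty acyl chains, and the degree of unsaturation sets how fluid a membrane is at a given temperature. SSI2, a soluble stearoyl-ACP desaturase of the plastid stroma, makes the oleate that feeds both compartments. In the endoplasmic reticulum FAD2 turns oleate into linoleate and FAD3 turns linoleate into linolenate, drawing electrons from cytochrome b5. In the plastid FAD5 acts on palmitate of galactolipids, FAD6 makes the dienoic acids, and FAD7 and FAD8 are a pair of isozymes that make the trienoic acids of thylakoid lipids, drawing electrons from ferredoxin. FAD8 is known in Arabidopsis as the isozyme favoured by low temperature. ADS1 and ADS2 belong to the acyl-lipid/acyl-CoA desaturase family, in which ADS2 is known for a role in chilling tolerance.

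Libraries held 7517174 to 22888978 counts (photomorphogenesis) and 6823975 to 22458726 counts (heat shock). Levels are given as CPM, each gene's count scaled to its library's TMM-adjusted total, and a gene was called at an edgeR adjusted p under 0.05, over all genes tested. As a check of the labels, BDR1 averaged 2.11 to 2.69 CPM in the mutant groups, against 53.2 to 101 CPM in the wild-type groups. BDR2 was also lower in the mutant in all 5 conditions, and BDR3 in 4 of them, with a log2 difference of -0.06 in the cold (edgeR adjusted p = 0.857). Among marker genes for other tissues, the 4 root markers summed to 199 to 215 CPM in dark bdr1,2,3 libraries and 127 to 145 CPM in dark wild-type libraries, nearly all of it CASP1, while the nitrate transporter gene NRT2.1 was at 0 in 2 of 3 dark bdr1,2,3 libraries and in all 3 dark wild-type libraries. Root marker sums were also higher in the mutant at 2 h and 4 h of light. In the heat shock experiment they went the other way. After heat they were 2.98 to 3.92 CPM in bdr1,2,3 and 4.36 to 8.03 CPM in wild type. In the cold they were 6.55 to 11.6 CPM in bdr1,2,3 and 10.3 to 17.0 CPM in wild type, which overlapped. In both conditions 0 of the 4 were called between the genotypes. The paper reports a short-root phenotype for this mutant. The 5 seed reserve genes summed to 17.3 to 22.5 CPM in heat-treated bdr1,2,3 and 2.08 to 5.96 CPM in heat-treated wild type, and 4 of the 5 were called higher. The 3 shoot markers summed to 5284 to 5673 CPM in bdr1,2,3 and 6475 to 7788 CPM in wild type at 2 h of light, and all 3 were called lower. These markers themselves respond to light. In wild type they summed to 1226 to 1453 CPM in the dark and 12191 to 12913 CPM at 4 h, so their sums do not measure shoot tissue alone. At 4 h of light the bdr1,2,3 libraries summed lower than wild type, to 9745 to 11334 CPM, with 0 of the 3 called between the genotypes. In the cold the shoot markers summed to 23765 to 25669 CPM in bdr1,2,3 and 21022 to 22426 CPM in wild type, with 1 of 3 called higher, and 3 of the 5 seed reserve genes were called higher. In the dark the cruciferin gene CRA1 had 1.62, 6.10 and 19.1 CPM in bdr1,2,3, with replicate 3 the highest, and 0.18 to 2.63 CPM in wild type. The part of these marker differences in the results below was not tested.

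FAD8 had the largest genotype log2 fold change of the 9 genes in the dark, at both times of light and after heat, with ADS1 close to it at 4 h of light, and not in the cold, where FAD5, FAD7, ADS2, ADS1 and FAD6 had larger ones. In the TAIR10.1 annotation FAD8 lies on chromosome 5, plus strand, at chr5:1664040-1666531. Its 5′ neighbour AT5G05570 runs on the same strand and ends 110 bp before the FAD8 start. Among 27438 protein-coding genes, 6.27% have a same-strand 5′ neighbour as close as this. The other members with a same-strand neighbour were FAD2 at 820 bp, SSI2 at 994 bp and FAD3 at 8129 bp. The neighbours of FAD5 (4 bp), FAD7 (446 bp), ADS2 (4910 bp), ADS1 (5704 bp) and FAD6 (7181 bp) lie on the opposite strand. The whole interval between AT5G05570 and FAD8 is printed because it is all the sequence that separates these genes, with the same length before the start of its isozyme FAD7 for comparison. Both are from the plus strand of TAIR10.1, at chr5:1663930-1664039 and chr3:3499427-3499536.
FAD8: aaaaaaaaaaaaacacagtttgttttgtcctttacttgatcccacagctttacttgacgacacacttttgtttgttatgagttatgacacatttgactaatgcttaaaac
FAD7: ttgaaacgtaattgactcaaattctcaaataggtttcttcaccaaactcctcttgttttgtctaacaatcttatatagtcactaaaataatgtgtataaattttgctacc
The A and T share was 69.1% in the FAD8 interval and 70.9% in the FAD7 stretch.

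Counts of FAD8 carry some uncertainty. The last 61 bp of the gene overlap PAI2 (AT5G05590), a tryptophan biosynthesis gene on the minus strand. Of 1473 windows of 40 bases within FAD8 exons, 222 (15.1%) occur elsewhere in the genome, 195 of them in PAI1 and 27 in FAD7. FAD7 had 27 repeated windows of 1775 (1.52%), and the other 7 genes had none. PAI2 itself averaged 0.35 to 3.48 CPM over the groups, and the strand setting of counting is not given in the sources used here. For other RNA-seq libraries of the same study the methods state that uniquely aligned reads were kept, and for these libraries the treatment of reads with several positions is not given in the sources used here.

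FAD8 transcript was lower in bdr1,2,3 than in wild type in darkness. The dark bdr1,2,3 libraries had 1.05, 0.99 and 0.95 CPM, against 3.68, 4.31 and 3.75 CPM in the dark wild-type libraries. The genotypes did not overlap, and these low levels rest on 24, 13 and 12 counts in bdr1,2,3 and on 28, 48 and 45 counts in wild type. FAD8 was 3.88-fold lower in the mutant (log2 fold change -1.96, SE 0.19, edgeR adjusted p = 5.89e-08). It was 1 of 4 members called in the dark, where 19.3% of all genes tested were called.

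Light raised FAD8 more than any other member in both genotypes, and the gap between genotypes was still open at both times. After 2 h of light the bdr1,2,3 libraries had 21.9, 22.1 and 20.7 CPM, against 61, 76.8 and 69.2 CPM in wild type. After 4 h they had 49.0, 53.2 and 53.3 CPM in bdr1,2,3, against 98.9, 96.7 and 106.7 CPM in wild type. The mutant at 4 h thus lay below the wild type at 2 h, and at neither time did the genotypes overlap. FAD8 was 3.19-fold lower in the mutant at 2 h (log2 fold change -1.67, SE 0.08, edgeR adjusted p = 1.06e-13) and 1.94-fold lower at 4 h (-0.96, SE 0.07, edgeR adjusted p = 6.91e-10). Within genotypes, FAD8 rose 21.3-fold in bdr1,2,3 and 17.5-fold in wild type by 2 h, and 51.0-fold in bdr1,2,3 and 25.5-fold in wild type by 4 h.

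On the log2 scale the genotype gap at FAD8 narrowed between darkness and 4 h of light. In CPM it widened, from means of 1.00 in bdr1,2,3 and 3.92 in wild type in the dark. At 4 h the means were 51.8 CPM in bdr1,2,3 and 101 CPM in wild type. The interaction, which is the genotype log2 fold change in light minus that in the dark, was 0.28 at 2 h (SE 0.21, edgeR adjusted p = 0.641) and 1.00 at 4 h (SE 0.21, edgeR adjusted p = 0.0102). Without wild-type dark replicate 2, the 4 h value was 0.92 with an adjusted p of 0.0525, and this was the sole library of the 12 whose removal ended the call. Between 2 h and 4 h FAD8 rose a further 2.40-fold in bdr1,2,3 (log2 fold change 1.26, SE 0.08) and 1.46-fold in wild type (0.55, SE 0.07).

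**Figure D1:**
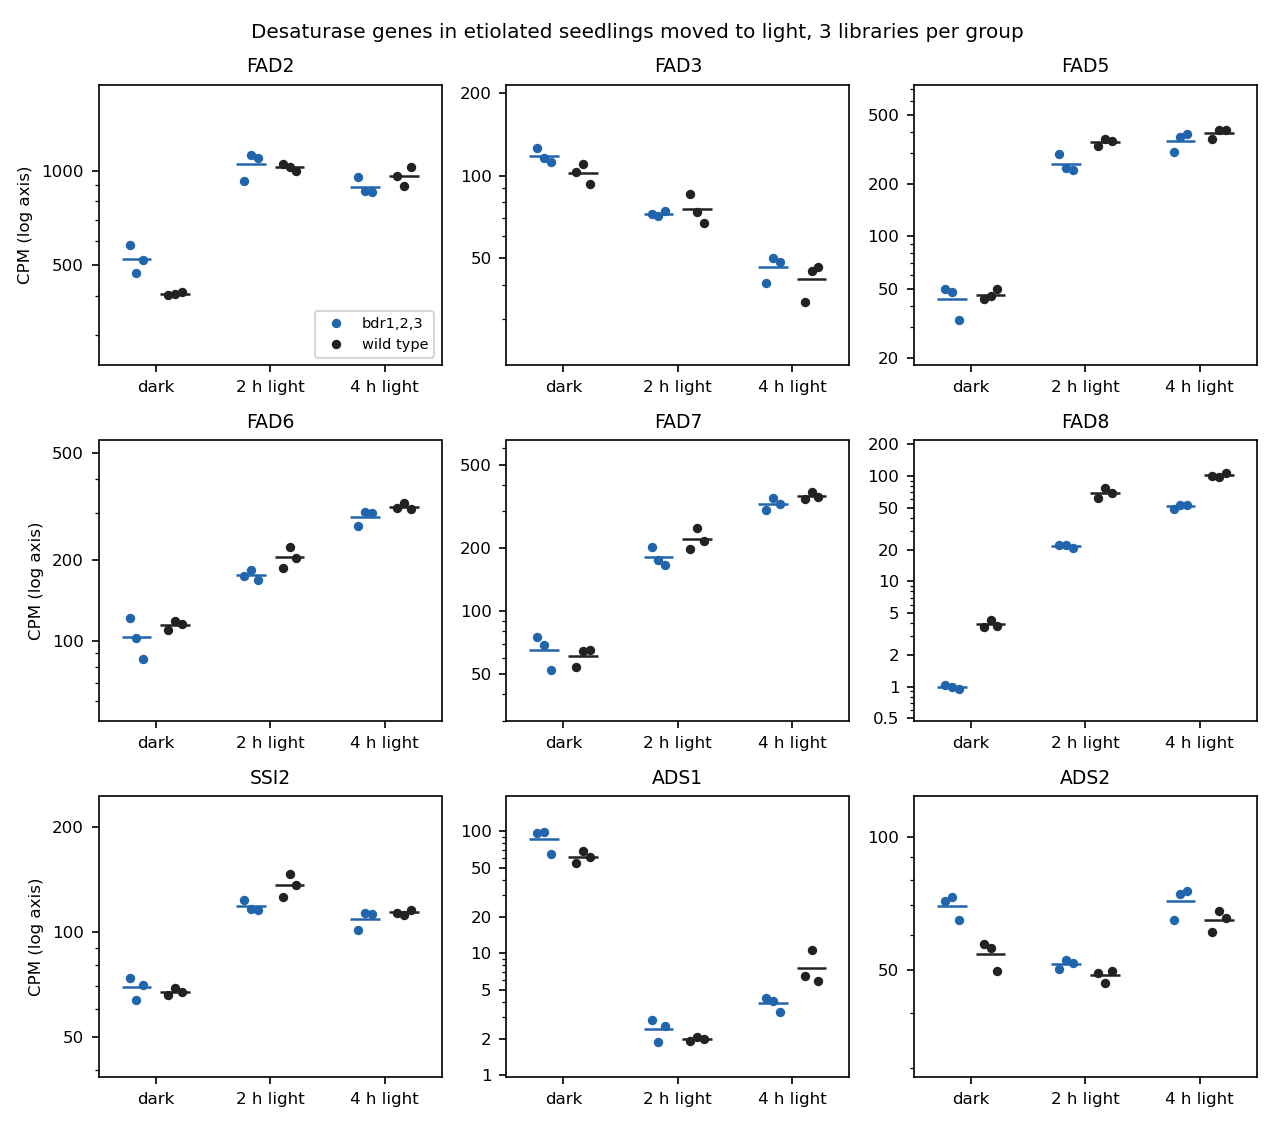
Level of each desaturase gene in CPM (log axis) in every photomorphogenesis library, with bdr1,2,3 in blue to the left of wild type in black, bars at the group means, and time of light from left to right. In the FAD8 panel all 9 bdr1,2,3 libraries lie below the wild-type libraries of the same time. ADS1 and FAD3 lie lower at both times of light than in the dark, while FAD5, FAD6 and FAD7 climb.

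In the heat shock experiment FAD8 was lower in the mutant at 27 °C, and the genotype difference was not called in the cold. Heat-treated bdr1,2,3 libraries had 16.0, 19.1 and 19.4 CPM, against 35.5, 35.5 and 35.8 CPM in heat-treated wild type. In the cold bdr1,2,3 had 81.1, 86.6 and 70.0 CPM, against 90.8, 88.2 and 87.5 CPM in wild type. The ranges were apart in both conditions, by a wide margin at 27 °C and narrowly in the cold. FAD8 was 1.96-fold lower in the mutant after heat (log2 fold change -0.97, SE 0.09, edgeR adjusted p = 6.26e-07), and its genotype log2 fold change in the cold was -0.17 (SE 0.08, edgeR adjusted p = 0.220). The difference of these genotype effects was itself called, at -0.81 (SE 0.12, edgeR adjusted p = 0.00504), and stayed between -0.89 and -0.72 with any of the 12 libraries left out. FAD8 was the member called in this interaction, for which 1.02% of all genes tested were called.

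Warming lowered FAD8 in both genotypes, by 4.37-fold in bdr1,2,3 (log2 fold change -2.13, SE 0.09, edgeR adjusted p = 1.56e-11) and by 2.5-fold in wild type (-1.32, SE 0.09, edgeR adjusted p = 1.26e-09). FAD7, its isozyme, had 377 ± 25.6 CPM after heat and 389 ± 35.7 CPM in the cold in bdr1,2,3, and 325 ± 14.6 CPM after heat and 313 ± 8.22 CPM in the cold in wild type (SD, n = 3 each). The log2 fold change of FAD7 with heat was -0.04 in bdr1,2,3 and 0.05 in wild type (SE 0.08 each), and neither was called.

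**Figure D2:**
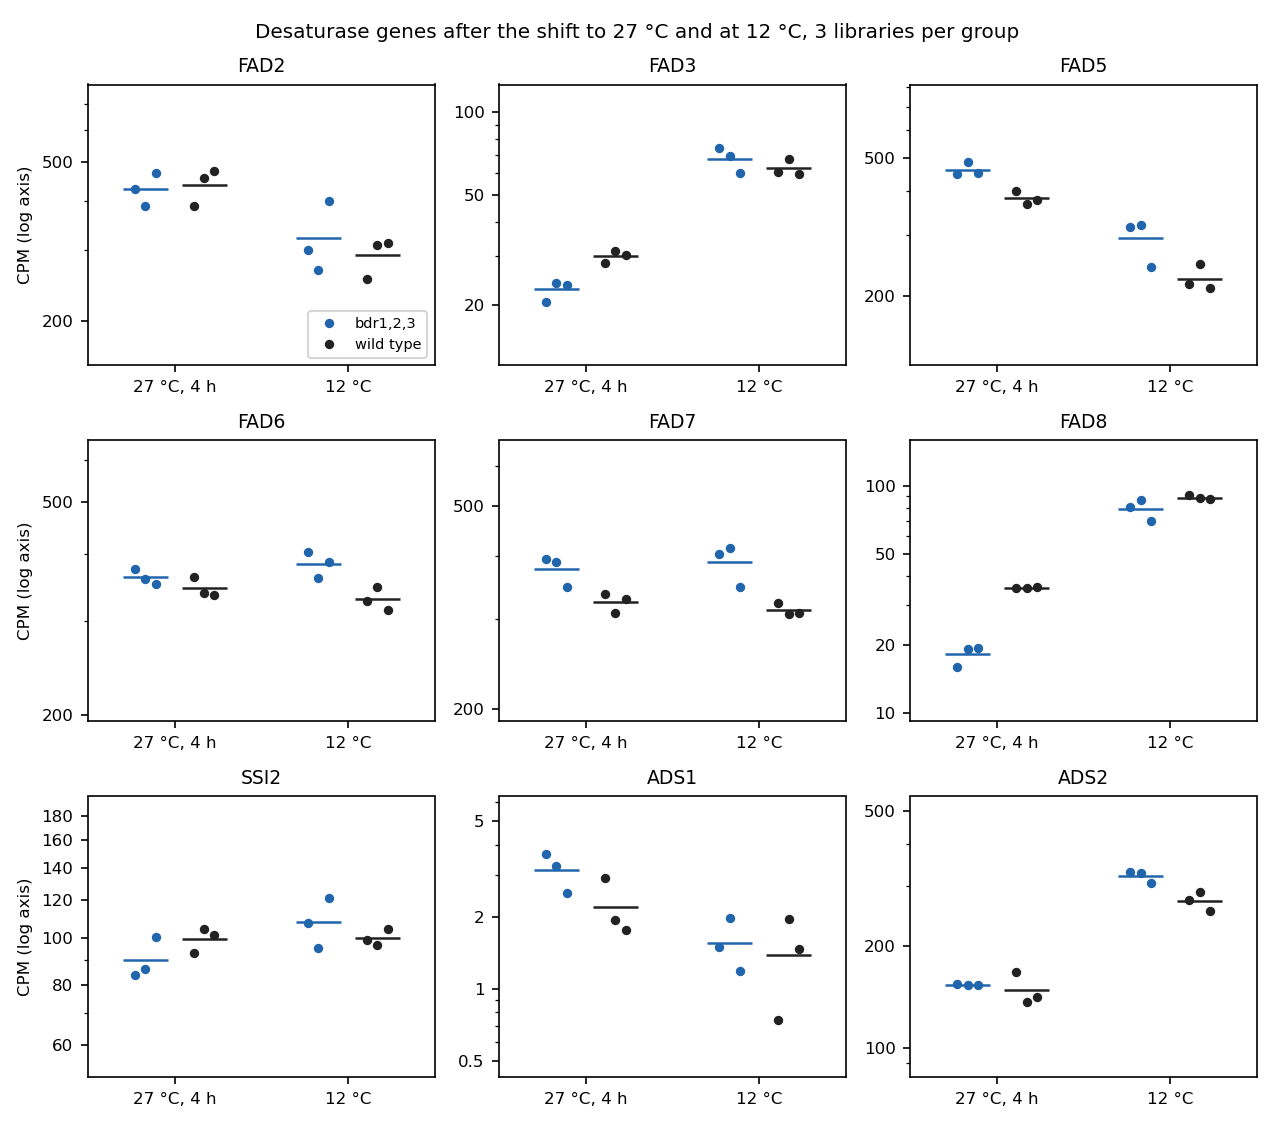
Level of each desaturase gene in CPM (log axis) in every heat shock library, bdr1,2,3 in blue left of wild type in black, bars at group means, seedlings moved to 27 °C left of those kept at 12 °C. FAD8 reads 16.0 to 19.4 CPM in bdr1,2,3 and 35.5 to 35.8 CPM in wild type at 27 °C, and FAD3 and ADS2 are lower at 27 °C than at 12 °C in both genotypes.

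The balance of the plastid pair followed these changes. Expressed per kb of exon, FAD8 made up 1.78 ± 0.26% of the summed level of FAD7 and FAD8 in dark bdr1,2,3 and 6.98 ± 0.61% in dark wild type (SD, n = 3 each). At 2 h of light the share was 12.3 ± 0.90% in bdr1,2,3 and 26.8 ± 0.44% in wild type, and at 4 h it was 15.7 ± 0.48% in bdr1,2,3 and 25.0 ± 1.46% in wild type. It was 5.36 ± 0.80% in bdr1,2,3 and 11.4 ± 0.45% in wild type after heat, and 19.2 ± 0.34% in bdr1,2,3 and 24.9 ± 0.19% in wild type in the cold. In all 5 conditions the highest bdr1,2,3 library lay below the lowest wild-type library, and FAD7 supplied the larger part everywhere. These shares restate the FAD8 and FAD7 levels and were given no test of their own. They also carry the uncertainty from the repeated windows of FAD8 given above.

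Neither gene beside FAD8 was called lower in the mutant in any of the 5 conditions. AT5G05570 had 35.2, 36.2 and 38.0 CPM in dark bdr1,2,3, against 26.1, 23.4 and 28.1 CPM in dark wild type. Mutant seedlings had more of it in darkness (log2 fold change 0.49, SE 0.08, edgeR adjusted p = 0.000167) and at 2 h of light (0.28, SE 0.08, edgeR adjusted p = 0.0220). Its genotype values were 0.14 at 4 h of light, 0.14 after heat and 0.21 in the cold, with no call. Light changed AT5G05570 little beside FAD8: its log2 fold change was -0.13 in bdr1,2,3 and 0.09 in wild type by 2 h, and -0.05 in bdr1,2,3 and 0.30 in wild type by 4 h, of which the last was called. PAI2 was not called between the genotypes in any condition, with log2 fold changes from -0.44 to 0.38 and SEs up to 0.56 on 2 to 56 counts per library.

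**Figure D3:**
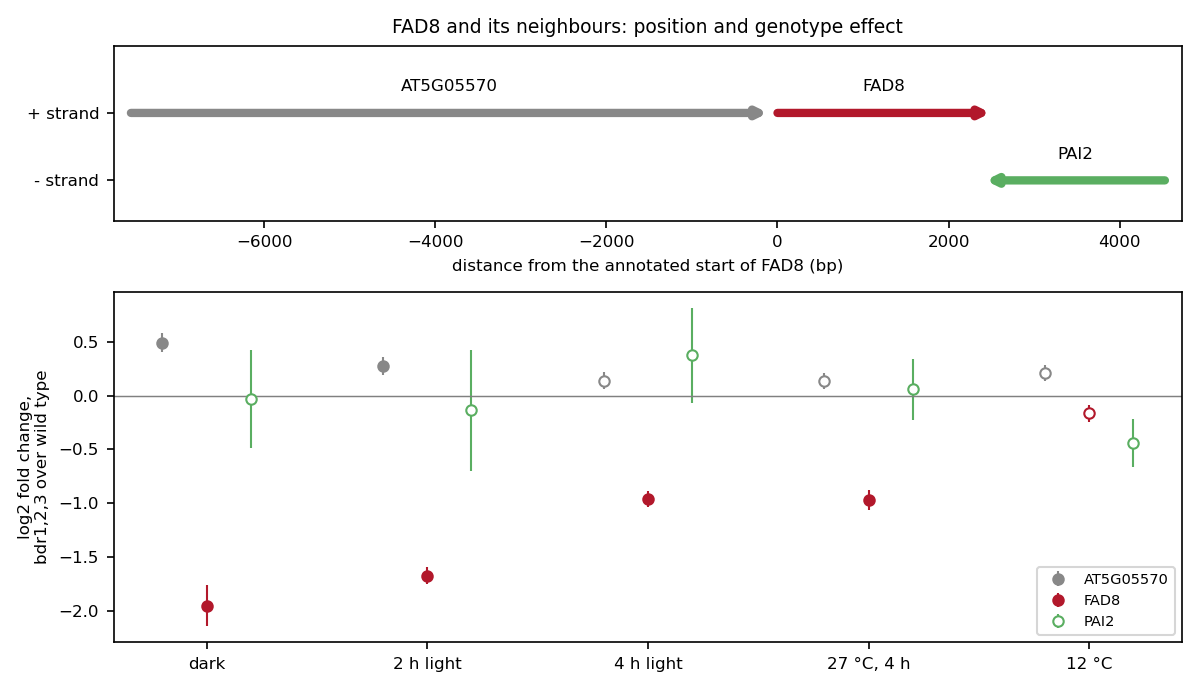
Top, annotated extent of FAD8 and its neighbours by distance from the FAD8 start in bp, arrows pointing in the direction of transcription. Bottom, log2 fold change of bdr1,2,3 over wild type with its SE in 5 conditions (filled where the edgeR adjusted p is under 0.05): FAD8 runs from -1.96 in the dark to -0.17 in the cold, while AT5G05570 stays between 0.14 and 0.49.

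Other members were also called between the genotypes. In the dark ADS2 and FAD2 were higher in the mutant, each by 0.37 on the log2 scale (SE 0.07 for ADS2 with edgeR adjusted p = 0.000743, SE 0.08 for FAD2 with edgeR adjusted p = 0.00282). FAD2 had 581, 472 and 519 CPM in dark bdr1,2,3, against 403, 404 and 412 CPM in dark wild type, and ADS2 had 71.8, 73.2 and 64.9 CPM in dark bdr1,2,3, against 57.4, 56.0 and 49.9 CPM in wild type. In neither gene did the genotypes overlap, and the calls of FAD8, ADS2 and FAD2 held without mutant dark replicate 3. ADS1 was also called higher in the dark (0.48, SE 0.16, edgeR adjusted p = 0.0403), with 96.2, 98.7 and 64.8 CPM in bdr1,2,3 and 55.4, 68.6 and 61.5 CPM in wild type, which overlapped. That call was lost without wild-type dark replicate 1 or 3 or mutant dark replicate 1 or 2 (0.39 to 0.48, edgeR adjusted p from 0.104 to 0.146). FAD6 was called lower in the dark without mutant dark replicate 1 (-0.28, edgeR adjusted p = 0.0307), and was at -0.14 with all libraries.

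At 2 h of light 3 members were called between the genotypes, all lower in the mutant, against 19.3% of all genes tested. Beside FAD8 these were FAD5 (log2 fold change -0.42, SE 0.12, edgeR adjusted p = 0.0186) and SSI2 (-0.20, SE 0.07, edgeR adjusted p = 0.0347). FAD5 had 298, 246 and 240 CPM in bdr1,2,3, against 332, 364 and 354 CPM in wild type, and SSI2 had 123, 116 and 116 CPM in bdr1,2,3, against 126, 146 and 136 CPM in wild type. Neither pair of ranges overlapped. Both calls were lost without replicate 2 or 3 of either genotype, with FAD5 then between -0.42 and -0.37 (edgeR adjusted p from 0.0563 to 0.0846) and SSI2 between -0.21 and -0.15 (edgeR adjusted p from 0.0752 to 0.199). FAD7 was called lower without replicate 1 of wild type (-0.36, edgeR adjusted p = 0.0451) or of bdr1,2,3 (-0.37, edgeR adjusted p = 0.0412), and FAD6 without replicate 1 of wild type (-0.28, edgeR adjusted p = 0.0473). With all libraries FAD7 was at -0.28 and FAD6 at -0.22, below the threshold.

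At 4 h of light 2 members were called, FAD8 and ADS1, both lower in the mutant, against 16.5% of all genes tested. ADS1 had 4.31, 4.05 and 3.31 CPM in bdr1,2,3, against 6.46, 10.6 and 5.90 CPM in wild type, with 28 to 67 counts in bdr1,2,3 and 70 to 124 counts in wild type. The groups did not overlap (log2 fold change -0.94, SE 0.26, edgeR adjusted p = 0.0224). The call was lost without wild-type replicate 2 (-0.64, edgeR adjusted p = 0.0941) or any of the mutant 4 h libraries (-1.0 to -0.87, edgeR adjusted p from 0.0593 to 0.071). In these 4 h groups same-numbered libraries deviated together. Fitting these 6 libraries by themselves, blocked on replicate number, called 5473 genes in place of 3227 and 3 members in place of 2, the added one being FAD5 (-0.16, edgeR adjusted p = 0.0265).

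In the heat shock experiment 2 members were called between the genotypes after heat, FAD8 and FAD3, both lower in the mutant, against 19.4% of all genes tested. FAD3 had 20.5, 23.9 and 23.7 CPM in heat-treated bdr1,2,3, against 28.4, 31.3 and 30.3 CPM in heat-treated wild type, with no overlap (log2 fold change -0.41, SE 0.09, edgeR adjusted p = 0.00502). FAD5 was at 0.27 there (edgeR adjusted p = 0.0596) and was called without wild-type heat replicate 1 (0.31, edgeR adjusted p = 0.0473) and under a replicate block (0.27, edgeR adjusted p = 0.0292). In the cold 2 members were called, both higher in the mutant, against 10.9% of all genes tested, where the shoot markers also summed higher in the mutant, as given above. They were FAD5 (0.39, SE 0.10, edgeR adjusted p = 0.0161), with 316, 319 and 242 CPM in bdr1,2,3 and 215, 246 and 210 CPM in wild type, and FAD7 (0.31, SE 0.08, edgeR adjusted p = 0.0192), with 403, 415 and 348 CPM in bdr1,2,3 and 322, 307 and 309 CPM in wild type. The third cold library of bdr1,2,3 was the lowest for both genes, and for FAD5 it overlapped the wild type. Cold calls were lost for FAD5 without wild-type replicate 1 or 3 or mutant replicate 1 or 2 (0.32 to 0.36), and for FAD7 without wild-type replicate 2 or 3 or mutant replicate 1 or 2 (0.26 to 0.30), with edgeR adjusted p from 0.0617 to 0.0992.

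**Figure D4:**
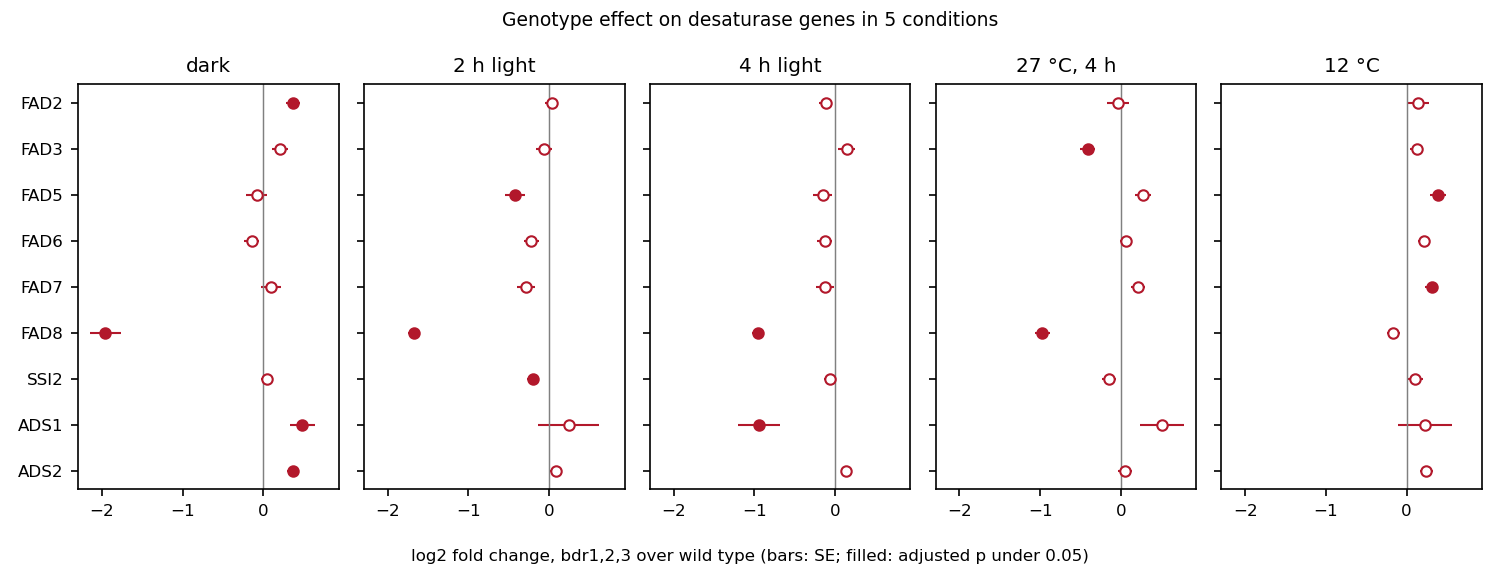
Log2 fold change of bdr1,2,3 over wild type with its SE for each desaturase gene in 5 conditions, filled where the edgeR adjusted p is under 0.05. FAD8 is the point farthest left in the dark (-1.96), at 2 h (-1.67), at 4 h of light (-0.96) and after heat (-0.97), and the filled points of other genes lie between -0.94 and 0.48.

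FAD5, FAD6 and FAD7 rose in light in both genotypes. FAD5 averaged 43.6 ± 9.29, 261 ± 31.7 and 356 ± 43.0 CPM at 0, 2 and 4 h in bdr1,2,3, and 46.3 ± 3.42, 350 ± 16.5 and 394 ± 25.8 CPM in wild type (SD, n = 3 each). By 4 h that was a rise of 8.11-fold in bdr1,2,3 and 8.5-fold in wild type, most of it within the first 2 h. FAD7 reached 325 ± 22.4 CPM at 4 h in bdr1,2,3 and 354 ± 14.0 CPM in wild type, a rise over the dark of 4.94-fold in bdr1,2,3 and 5.75-fold in wild type. FAD6 rose 2.78-fold in bdr1,2,3 and 2.76-fold in wild type by 4 h, and unlike FAD5 it climbed about evenly over both intervals, by 0.76 and then 0.72 on the log2 scale in bdr1,2,3 and by 0.84 and then 0.63 in wild type. Over the dark, each of these rises had an edgeR adjusted p of 8.78e-08 or less.

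The desaturases of the endoplasmic reticulum went in opposite directions in light. FAD2 averaged 524 ± 54.8, 1053 ± 104 and 892 ± 55.9 CPM at 0, 2 and 4 h in bdr1,2,3, and 406 ± 4.70, 1030 ± 25.0 and 966 ± 67.2 CPM in wild type (SD, n = 3 each). Its rise by 4 h was 1.70-fold in bdr1,2,3 and 2.38-fold in wild type, and the interaction was called (-0.48, SE 0.12, edgeR adjusted p = 0.0316). The genotypes were apart in the dark, as above, and their ranges overlapped at 2 h and 4 h. That interaction was not called when any of 8 of its 12 libraries was left out, namely wild-type dark replicates 1, 2 and 3, wild-type 4 h replicates 1 and 3, mutant dark replicate 1 and mutant 4 h replicates 2 and 3 (-0.49 to -0.40, edgeR adjusted p from 0.0508 to 0.103). FAD3 averaged 118 ± 7.12, 72.5 ± 1.63 and 46.3 ± 4.95 CPM in bdr1,2,3, and 103 ± 8.66, 75.6 ± 9.46 and 41.9 ± 6.40 CPM in wild type. It fell 2.56-fold in bdr1,2,3 and 2.45-fold in wild type by 4 h (edgeR adjusted p = 1.37e-10 in bdr1,2,3 and 4.64e-10 in wild type).

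SSI2 rose 1.71-fold in bdr1,2,3 and 2.02-fold in wild type by 2 h of light and stood at 109 ± 6.74 CPM in bdr1,2,3 and 114 ± 1.91 CPM in wild type at 4 h (SD, n = 3 each). From 2 h to 4 h SSI2 fell in wild type (log2 fold change -0.26, SE 0.07, edgeR adjusted p = 0.00259). In bdr1,2,3 that value was -0.12 (SE 0.07, edgeR adjusted p = 0.155), with no call. ADS1 fell most of all members. It had 86.6 ± 18.9, 2.41 ± 0.49 and 3.89 ± 0.52 CPM at 0, 2 and 4 h in bdr1,2,3, and 61.9 ± 6.62, 1.99 ± 0.09 and 7.65 ± 2.55 CPM in wild type. The 2 h level was 36.7-fold lower than the dark level in bdr1,2,3 and 31.1-fold lower in wild type. From 2 h to 4 h ADS1 recovered in wild type by 3.82-fold (log2 fold change 1.93, SE 0.31, edgeR adjusted p = 8.63e-05), while in bdr1,2,3 the value was 0.75 (SE 0.32, edgeR adjusted p = 0.0760). The 4 h interaction of ADS1 was called (-1.43, SE 0.31, edgeR adjusted p = 0.0254), and was lost without wild-type dark replicate 1 or any mutant 4 h library (-1.50 to -1.36, edgeR adjusted p from 0.0527 to 0.0724). Over the dark level ADS2 moved least: it dipped at 2 h in bdr1,2,3 (-0.44, SE 0.07, edgeR adjusted p = 6.96e-06) and was at -0.16 in wild type (edgeR adjusted p = 0.0660, and 0.0217 at -0.22 without wild-type dark replicate 3). From 2 h to 4 h ADS2 rose by 0.47 in bdr1,2,3 and 0.41 in wild type on the log2 scale, and at 4 h it was above the dark level in wild type (0.25, SE 0.07, edgeR adjusted p = 0.00350) and at 0.03 in bdr1,2,3.

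By 2 h of light 9 of 9 members were called in bdr1,2,3 (67.7% of all genes tested) and 8 in wild type (66.8%). By 4 h 8 were called in bdr1,2,3 (70.0%) and 9 in wild type (70.2%), and between 2 h and 4 h 7 were called in each genotype (41.7% in bdr1,2,3 and 46.0% in wild type). The last 7 included FAD2 in bdr1,2,3 (-0.24, edgeR adjusted p = 0.0235), a call lost without mutant replicate 2 or 3 of either time (-0.22 to -0.19, edgeR adjusted p from 0.0854 to 0.118). The member shares were above the shares of all genes in each of these comparisons, on 9 genes. The median log2 fold change of the members by 2 h was 0.77 in bdr1,2,3 and 1.02 in wild type, beside -0.01 in bdr1,2,3 and 0.01 in wild type over all genes. For the interactions, 0 members were called at 2 h (1.84% of all genes; 4 members at an unadjusted edgeR p under 0.05, and 0 by DESeq2), and 3 at 4 h (2.07%), which were FAD8, ADS1 and FAD2.

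With the shift to 27 °C 7 members were called in bdr1,2,3 (60.6% of all genes tested) and 5 in wild type (57.8%). With any single bdr1,2,3 library of this experiment left out, 6 were called in bdr1,2,3. The 5 of 9 in wild type is near the share of all genes. FAD3 and ADS2 fell beside FAD8. FAD3 had 22.7 ± 1.90 CPM after heat and 67.8 ± 6.91 CPM in the cold in bdr1,2,3, and 30.0 ± 1.48 CPM after heat and 62.5 ± 4.28 CPM in the cold in wild type (SD, n = 3 each). That was 3.00-fold lower in bdr1,2,3 and 2.07-fold lower in wild type, and the interaction of FAD3 was -0.53 (SE 0.13, edgeR adjusted p = 0.0537). It was called without wild-type heat replicate 1 (-0.57, edgeR adjusted p = 0.0279) or mutant cold replicate 3 (-0.61, edgeR adjusted p = 0.0172). ADS2 had 154 ± 0.43 CPM after heat and 322 ± 13.0 CPM in the cold in bdr1,2,3, and 148 ± 16.5 CPM after heat and 272 ± 17.3 CPM in the cold in wild type, falling 2.1-fold in bdr1,2,3 and 1.83-fold in wild type.

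FAD5 and FAD2 rose with the shift in both genotypes, FAD5 by 1.58-fold in bdr1,2,3 and 1.71-fold in wild type, and FAD2 by 1.33-fold in bdr1,2,3 and 1.50-fold in wild type. The FAD2 call in bdr1,2,3 was lost without mutant cold replicate 1 or 2 or mutant heat replicate 3 (0.29 to 0.36, edgeR adjusted p from 0.0602 to 0.0751). SSI2 fell slightly in bdr1,2,3 (-0.26, SE 0.09, edgeR adjusted p = 0.0196), a call lost without mutant cold replicate 3 or mutant heat replicate 1 or 2 (-0.23 to -0.17, edgeR adjusted p from 0.0730 to 0.115). ADS1 was scarce in these older seedlings, with 10 to 52 counts per library. It rose 2.04-fold in bdr1,2,3 (1.03, SE 0.29, edgeR adjusted p = 0.00511) and was at 0.74 in wild type (SE 0.32, edgeR adjusted p = 0.0567), called there without wild-type cold replicate 2 (0.94, edgeR adjusted p = 0.0299) or wild-type heat replicate 3 (0.87, edgeR adjusted p = 0.0419). FAD6 had 362 ± 12.0 CPM after heat and 383 ± 21.3 CPM in the cold in bdr1,2,3, and 345 ± 15.2 CPM after heat and 330 ± 16.7 CPM in the cold in wild type, with no call.

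**Figure D5:**
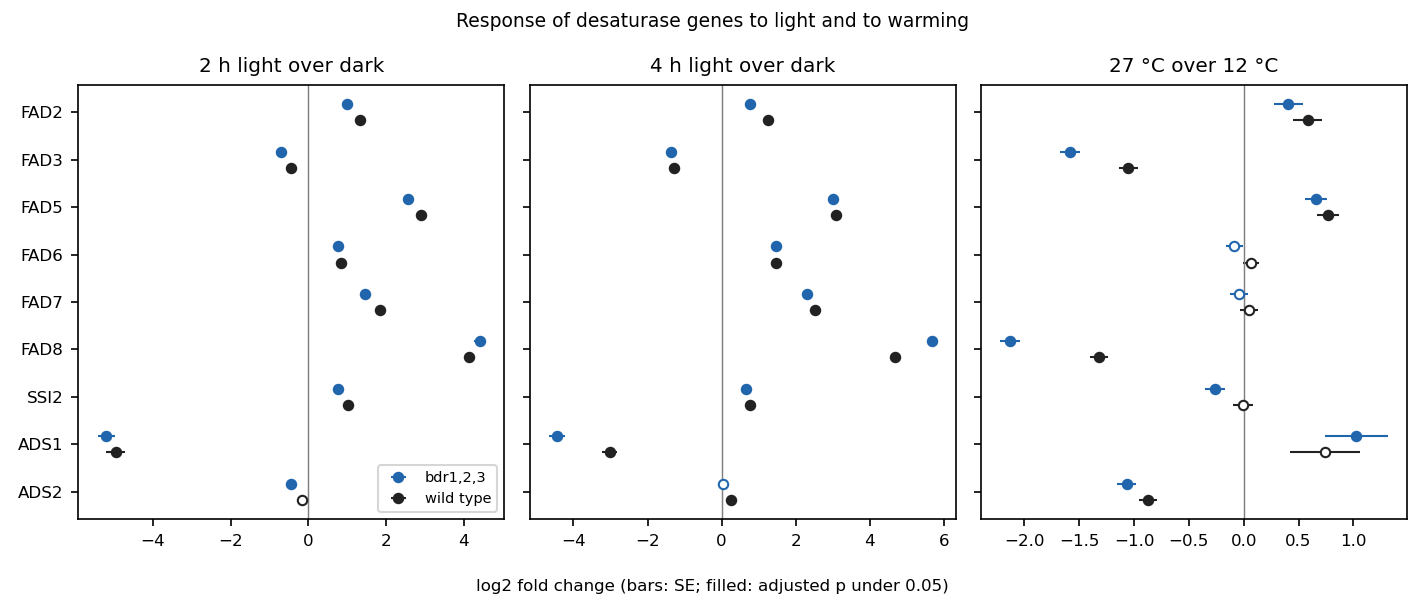
Log2 fold change with its SE of each desaturase gene for 2 h and 4 h of light over dark and for 4 h at 27 °C over 12 °C, bdr1,2,3 in blue above wild type in black, filled where the edgeR adjusted p is under 0.05, each panel with its own scale. FAD8 is highest in light (5.67 in bdr1,2,3 and 4.67 in wild type at 4 h) and lowest at 27 °C (-2.13 in bdr1,2,3 and -1.32 in wild type), and the FAD6 and FAD7 points at 27 °C are open and near 0.

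Compared per kb of exon, FAD2 was the most abundant member in darkness and light, at 207 CPM per kb in dark bdr1,2,3 and 161 CPM per kb in dark wild type, and at 353 CPM per kb in bdr1,2,3 and 382 CPM per kb in wild type at 4 h. In dark seedlings FAD8 was last, at 0.56 CPM per kb in bdr1,2,3 and 2.19 CPM per kb in wild type. The members between them held 24.3 to 67.8 CPM per kb in bdr1,2,3 and 25.9 to 62.8 CPM per kb in wild type, and FAD3, ADS1 and FAD6, which followed FAD2 in bdr1,2,3, differed there by less than the larger SD of each pair of neighbours. By 4 h the order in both genotypes was FAD2, FAD5, FAD6, FAD7 and SSI2. After these came ADS2 (41.5), FAD8 (29.0) and FAD3 (26.5 CPM per kb) in bdr1,2,3, and FAD8 (56.5), ADS2 (37.6) and FAD3 (24.0 CPM per kb) in wild type, with ADS1 last. FAD6 and FAD7 (159 and 156 CPM per kb in bdr1,2,3, 174 and 169 CPM per kb in wild type) differed by less than the larger of their SDs there, as did FAD8 and FAD3 in bdr1,2,3.

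In the heat shock experiment the order at 12 °C was FAD6, ADS2, FAD7, FAD5, FAD2, SSI2, FAD8, FAD3 and ADS1 in both genotypes, with FAD6 at 210 ± 11.7 CPM per kb in bdr1,2,3 and 181 ± 9.14 CPM per kb in wild type. By the same measure ADS2 and FAD7 were not apart there in bdr1,2,3 (187 ± 7.53 and 186 ± 17.1 CPM per kb) or in wild type (158 ± 10.0 and 150 ± 3.93 CPM per kb), nor were FAD7 and FAD5 in bdr1,2,3 (186 ± 17.1 and 163 ± 24.2 CPM per kb) or FAD5 and FAD2 in wild type (125 ± 10.9 and 116 ± 13.0 CPM per kb). At 27 °C FAD5 came first, at 258 ± 12.1 CPM per kb in bdr1,2,3 and 213 ± 9.28 CPM per kb in wild type. FAD8 was above FAD3 in wild type at 27 °C (19.9 ± 0.10 and 17.2 ± 0.85 CPM per kb) and below it in bdr1,2,3 (10.2 ± 1.05 and 13.0 ± 1.09 CPM per kb). Exon lengths were not reduced for the repeated windows of FAD8 (15.1%, none in FAD3). The order of these genes in bdr1,2,3 carries that uncertainty.

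Among 18636 genes tested in both experiments, the genes most like each member were taken by the smaller of 2 Pearson correlations of log2 CPM, over the 18 and the 12 libraries. These libraries share their conditions, so the values describe likeness across conditions. The genes most like FAD8 were AT3G62550 (r = 0.98 and 0.98) and AT1G70480 (r = 0.99 and 0.97). For FAD5 they were AT4G02920 (0.99 and 0.98) and AT2G33250 (0.99 and 0.96), and for FAD7 PGR5 (0.95 and 0.92) and LHCB4.3 (0.98 and 0.91), genes of photosynthetic electron flow and light harvesting. FAD2 was closest to CYP709B3 (0.96 and 0.97) and PIL6 (0.96 and 0.92), a phytochrome-interacting transcription factor. FAD3 was closest to AT2G37710 (0.97 and 0.98) and AT1G27020 (0.96 and 0.96), ADS1 to EXO70A1 (0.95 and 0.93) and XTH15 (0.99 and 0.92), and ADS2 to AT3G15710 (0.89 and 0.90) and ANNAT1 (0.89 and 0.98). SSI2 (AT5G62220, 0.95 and 0.85, and AT5G62350, 0.86 and 0.82) and FAD6 (FBR12, 0.87 and 0.90, and AT3G53870, 0.86 and 0.88) had the least close partners.

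Other desaturase genes were called lower in light more often than higher. Of 18 listed, 13 were tested in the photomorphogenesis experiment, and by 2 h 1 was called higher and 10 lower in bdr1,2,3, and 1 higher and 8 lower in wild type (67.7% and 66.8% of all genes were called in either direction). Their median log2 fold change was -1.02 in bdr1,2,3 and -0.78 in wild type, beside the medians near 0 over all genes given above. FAD4, which makes the trans-unsaturated palmitate of plastid phosphatidylglycerol, was the exception, at log2 fold changes of 7.47 in bdr1,2,3 (8.70 without mutant dark replicate 1) and 6.24 in wild type. Among the acyl-ACP desaturases, AAD4 fell by 3.18 in bdr1,2,3 and by 1.87 in wild type. Its dark levels were 5.98, 7.85 and 23.1 CPM in bdr1,2,3 and 4.34, 4.49 and 9.01 CPM in wild type, and without mutant dark replicate 3 the fall was by 2.36. The wild-type call was lost without dark replicate 3 or light replicate 2 or 3 (-1.61 to -1.42, edgeR adjusted p from 0.120 to 0.167), and the value was -2.68 without light replicate 1. ADS4 and SLD2, a sphingolipid desaturase gene, were also lower by 2 h, SLD2 losing its call in bdr1,2,3 without mutant dark replicate 2 or mutant light replicate 1 (-1.16 and -1.10). ADS4 was called higher in the mutant at all 3 times of this experiment, and lost its call at 2 h without mutant replicate 2 or wild-type replicate 2 or 3, and at 4 h without replicate 1 of either genotype (edgeR adjusted p from 0.0564 to 0.141). Its levels were low, averaging 3.33 CPM in dark bdr1,2,3 and 0.98 CPM in dark wild type (log2 fold change 1.75, SE 0.36), and in light it had 2 to 17 counts in bdr1,2,3 libraries and 0 to 4 counts in wild-type libraries. With the shift to 27 °C 1 other desaturase was called higher and 9 lower in bdr1,2,3, and 1 higher and 7 lower in wild type (60.6% and 57.8% of all genes were called). ADS1.2, ADS1.3 and AAD3 were among those that fell, and AAD4 rose (2.00 in bdr1,2,3 and 1.87 in wild type), to a mean of 1.4 CPM in bdr1,2,3 and 0.70 CPM in wild type. The wild-type call of AAD4 was lost without cold replicate 1 (1.47) or heat replicate 1 (1.29), and the value was 2.72 without cold replicate 3. The median over these 13 genes was -0.60 in bdr1,2,3 and -0.44 in wild type, beside -0.02 in bdr1,2,3 and 0.00 in wild type over all genes.

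Of 9 electron donor genes, 5 were called higher and 3 lower in bdr1,2,3 by 2 h of light, and 5 higher and 2 lower in wild type, with a median log2 fold change of 1.15 in bdr1,2,3 and 1.35 in wild type. These 8 of 9 and 7 of 9 stand beside 67.7% and 66.8% of all genes called. The ferredoxins and ferredoxin-NADP reductases rose most: FD1 by 4.07 in bdr1,2,3 and 3.63 in wild type, FD2 by 3.21 in bdr1,2,3 and 3.33 in wild type, LFNR1 by 2.86 in bdr1,2,3 and 3.03 in wild type, and LFNR2 by 2.40 in bdr1,2,3 and 2.77 in wild type on the log2 scale. Mutant FD1 levels were below wild type in the dark (log2 fold change -0.95), at 2 h (-0.50), at 4 h of light (-0.33) and after heat (-0.95), and at -0.09 in the cold with no call. The FD1 call at 4 h was lost without mutant replicate 1 (-0.21, edgeR adjusted p = 0.141) or wild-type replicate 2 (-0.32, edgeR adjusted p = 0.0654). With heat 4 of the 9 were called higher and 4 lower in bdr1,2,3, and 2 higher and 2 lower in wild type, beside 60.6% and 57.8% of all genes called. FD1 rose (1.21 in bdr1,2,3 and 2.07 in wild type) and LFNR2 fell (-0.59 in bdr1,2,3 and -0.64 in wild type). The cytochrome b5 genes CB5-C (-2.12 in bdr1,2,3 and -2.19 in wild type) and CB5-B (-0.69 in bdr1,2,3, and -0.14 with no call in wild type) were lower.

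Fatty acid synthesis genes were called lower more often than higher at 2 h of light, and higher between 2 h and 4 h. By 2 h of light, 3 of 14 were called higher and 8 lower in each genotype, and between 2 h and 4 h 11 were called higher in each, with 1 lower in bdr1,2,3. Over all genes 67.7% in bdr1,2,3 and 66.8% in wild type were called by 2 h, and 41.7% in bdr1,2,3 and 46.0% in wild type between 2 h and 4 h. The median of the list by 2 h was -0.25 in bdr1,2,3 and -0.24 in wild type, and between 2 h and 4 h it was 0.32 in bdr1,2,3 and 0.47 in wild type. The acyl carrier protein gene ACP4 rose by 2.72 in bdr1,2,3 and 2.86 in wild type within 2 h, while BCCP2, a subunit of acetyl-CoA carboxylase, fell by 1.86 in bdr1,2,3 and by 1.74 in wild type. CAC2 was lower at 4 h (-0.60 in bdr1,2,3 and -0.68 in wild type), and KAS II was higher (0.68 in bdr1,2,3 and 0.73 in wild type). With heat, 2 of the 14 were called higher and 5 lower in bdr1,2,3, and 5 higher and 4 lower in wild type. Over all genes 60.6% in bdr1,2,3 and 57.8% in wild type were called. The thioesterase gene FATB rose with heat (1.41 in bdr1,2,3 and 1.28 in wild type), BCCP2 fell (-1.02 in bdr1,2,3 and -1.15 in wild type) and KAS III fell (-0.77 in bdr1,2,3 and -0.67 in wild type).

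Of 18 genes of membrane lipid assembly, 13 were called higher and 5 lower in bdr1,2,3 by 4 h of light, and 12 higher and 4 lower in wild type, with a median of 0.40 in bdr1,2,3 and 0.53 in wild type (70.0% and 70.2% of all genes were called). ATS1, the plastid glycerol-3-phosphate acyltransferase gene, rose by 1.94 in bdr1,2,3 and 2.23 in wild type, and SFR2 and DGD1, which make digalactolipids and other oligogalactolipids, rose as well (SFR2 by 2.15 in bdr1,2,3 and 2.01 in wild type, DGD1 by 1.15 in bdr1,2,3 and 1.05 in wild type). MGD3 fell by 2.01 in bdr1,2,3 and by 3.09 in wild type. Between the genotypes the mutant had 1 called higher and 7 lower in the dark, and 1 higher and 3 lower after heat, beside 19.3% of all genes called in the dark and 19.4% after heat, so that 4 of 18 after heat is near the background. MGD2, a galactolipid synthase gene, was lower in the mutant in all 5 conditions, by 0.59 to 0.91 on the log2 scale, a call that was lost at 2 h without replicate 1 or 2 of either genotype (edgeR adjusted p from 0.0787 to 0.0881). With heat 4 were called higher and 9 lower in bdr1,2,3, and 2 higher and 9 lower in wild type, MGD3, MGD2, SFR2 and ATS1 being the named ones that fell.

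Short motifs were searched on both strands in the 250 bases before each annotated start, which for FAD8 reach into AT5G05570. The FAD5 window likewise reaches into AT3G15840, which lies 4 bp before the FAD5 start. The C-repeat core CCGAC was present in SSI2 (11.97% of 27443 promoters), the evening element core AAATATCT in FAD5 (4.79%) and the heat shock element core GAANNTTC in FAD6 (9.55%). The G-box CACGTG, present in 6.49% of promoters, was in no member, and none of these motifs was in the window of FAD8. A match describes these letters in this window.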

How the data were processed

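RNA-seq libraries of whole seedlings were prepared with a stranded mRNA kit. The authors deposited raw counts per gene for each experiment, and those counts were the values used here. Tables of normalized counts were also deposited and were not used. The submitters' processing notes name STAR 2.5.2b, SAMtools 1.3.1, featureCounts, R 3.3.2, DESeq2 1.14.1 and the build TAIR10, while the strand setting of counting is not given in the sources used here. Groups came from the sample titles. Counts were tested with edgeR 4.0.16 in R 4.3.3 (filterByExpr, TMM, robust glmQLFit, glmQLFTest, a coefficient per group), separately for 19521 genes of the photomorphogenesis experiment (18 libraries) and 19473 genes of the heat shock experiment (12 libraries), with two-sided p-values adjusted by Benjamini-Hochberg over all genes tested. The script was tested on simulated data. Replicates of a group differed by more than counting error (chi-square per degree of freedom 2.02 to 15.4). Replicate numbers paired bdr1,2,3 with wild type at 4 h of light (correlations of same-numbered deviations 0.19 to 0.63, against a minimum of 0.1), from the data and not from a label, and in no other comparison between these groups. Alternatives were DESeq2 1.42.0, RLE size factors, no filter on low counts, a replicate block and each library left out, with the 4 h libraries alone, and each library left out for the named list genes, added after seeing the data. Positions and sequences are from RefSeq's TAIR10.1 annotation and genome, matched by locus tag. Exon lengths are of the merged exons. The 9 genes were listed by name and not by a value, but they, the gene lists and the motifs were chosen with earlier results of these data known. All 9 genes were tested in every comparison, and values are not printed for every gene in every comparison. From each list, up to 4 genes per experiment with the largest called response in either genotype are named. The distance to the nearest 5′ gene is given for each member. PAI2, PAI1 and the ADS4, FD1 and MGD2 genotype values were singled out after their values were seen.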

Additional observations from a re-analysis of the deposited data

Results flagged for a closer look

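The genotype effect differed between conditions for 3 of the desaturase genes by a test of the difference itself (edgeR interaction). Over all genes tested, 2.07% were called in the 4 h light interaction and 1.02% in the heat interaction. For FAD8 the genotype log2 fold change at 4 h of light exceeded that in the dark by 1.00 (SE 0.21, adjusted p = 0.0102). After heat it was below that in the cold by an interaction of -0.81 (SE 0.12, adjusted p = 0.00504). The 4 h light interactions of ADS1 (-1.43, SE 0.31, adjusted p = 0.0254) and FAD2 (-0.48, SE 0.12, adjusted p = 0.0316) went the other way. With single libraries left out, the 4 h call of FAD2 was lost in 8 of 12 fits, that of ADS1 in 4 and that of FAD8 in 1. The heat call of FAD8 was lost in 0 of 12. The 4 h values share the dark libraries of both genotypes. Groups of 3 libraries were not tested for outlying samples.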

How the results depend on the processing

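The genotype calls of FAD8 in the dark, in light and after heat held under DESeq2, RLE size factors, no filter, a replicate block and every library left out. The number of members called moved by more than 1.5 times in some genotype comparisons. In the cold it was 2, and 4 by DESeq2, which added FAD6 (adjusted p = 0.0144) and ADS2 (0.0325). The block added ADS2 there (0.0404). After heat it was 2, and 4 by DESeq2 and by RLE size factors, which added FAD5 and FAD7, and 3 with the block, which added FAD5. In the heat interaction it was 1, and 2 by DESeq2, without the filter and with the replicate block, which added FAD3. With the replicate block for all groups, 2 members were called at 2 h of light, SSI2 being lost (edgeR adjusted p = 0.0507), and 2 at 4 h. SSI2 at 2 h was also lost by DESeq2 (adjusted p = 0.0646) and by RLE size factors (0.0662), and ADS1 between 2 h and 4 h in bdr1,2,3 was gained by DESeq2 (0.0188) and the block (0.0286). Without the filter ADS1 in the dark was lost (edgeR adjusted p = 0.0573). With the 4 h libraries alone and a block 5473 genes were called, against 3227, and 2960 without the block. With one library left out, members called ranged from 1 to 5 at 2 h, 1 to 2 at 4 h, 0 to 2 in the cold, 1 to 3 in the 4 h interaction and 1 to 2 in the heat interaction. Genes called over the whole table then ranged from 218 to 380 and from 205 to 497 in the 2 h and 4 h light interactions (360 and 404 with all libraries), from 42 to 354 in the heat interaction (198) and from 1293 to 2091 in the cold (2129). No member called under any setting changed sign. Low counts limit ADS1 in light and FAD8 in the dark.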
